A study of Mus musculus with 23 samples.

Results

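The interleukin receptor genes are the mouse genes whose symbols begin with Il, a number and r, apart from the receptor antagonist Il1rn. Of 19938 genes measured on the arrays through probe sets with 1 gene symbol, 35 met this rule, and the probe set of highest mean over the 23 arrays stood for each gene. A further 5 receptor genes with matching symbols (Il1r1, Il1rl1, Il2rg, Il11ra1 and Il11ra2) were not named by the probe table and were not analysed here.

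The cells were macrophages grown from the bone marrow of wild-type C57Bl/6 mice. Their growth factor M-CSF was supplied for 6 days at 10 ng/mL and taken away 1 to 3 days before the treatment. SA denotes stearic acid, a saturated fatty acid, given at 250 µM for 20 h (4 arrays) or 5 h (4 arrays). OA denotes oleic acid, a monounsaturated fatty acid of the same chain length, given at 250 µM for 20 h (4 arrays) or 5 h (4 arrays). LPS is the bacterial lipopolysaccharide that activates Toll-like receptor 4, given at 1 ng/mL for 5 h (4 arrays). BSA is the fatty acid-free albumin that carried both acids at 2 molecules of acid per albumin, and 125 µM of it alone for 5 h was the vehicle (3 arrays). No albumin concentration is recorded here for the LPS arrays. The sample titles give 5 h for LPS and BSA, where the series text gives 4 h, and all vehicle arrays are of the early time. The labels speak of replicate wells while the series text calls them biological replicates. The p-values thus reflect only how far these samples differ among themselves, which may be technical.

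Interleukin receptors are assembled from chains, of which some bind 1 ligand and others are shared by several ligands. The receptors of the common gamma chain, IL-6 and IL-10 families signal through Janus kinases and STAT factors, whereas the IL-1 and IL-17 receptor families signal through adaptor proteins towards NF-kB. In macrophages IL-10 receptors restrain inflammatory genes, IL-4 and IL-13 receptors drive the alternative programme, and the IL-15 receptor alpha chain holds IL-15 on the cell surface for neighbouring lymphocytes.

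Expression is given as log2 values made by RMA, which ran from 0.380 to 12.9 over all probe sets, and a change is a difference of log2 means. A gene was called changed at a Benjamini-Hochberg adjusted p under 0.05 over all 19938 genes in limma, a linear model with variances moderated across genes. All adjusted p-values below come from that fit. RNA of whole wells was measured, so fewer cells of a type and less RNA per cell cannot be told apart. All 9 measured macrophage markers lay above 3.52 in every group, the 95th percentile of the mean levels of 1027 olfactory receptor genes, which describe what probe sets of silent genes read here. This was not particular to macrophage markers. Of 10 neutrophil markers only 1 or 2 were at or below 3.52 in a group. Of 7 dendritic cell markers 3 to 5 were at or below it, and the highest, Itgax, read 9.02 to 9.84 over all arrays. The SA 20 h replicate 2 array stood apart from the others of its group, with a standard deviation of 0.215 of its genes around the group means, against 0.153 to 0.161 on the other arrays of the group.

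Of the 35 receptor genes, 14 were called in at least 1 of 9 comparisons and 21 in none. That is 40.0% of the members, where 36.9% of all genes were called at least once. The highest group mean lay at or below 3.52 for 14 receptor genes, and 3 of these (Il2ra, Il23r and Il2rb) were among those called. The 4 receptor genes with a called change of at least 1 were Il15ra, Il13ra1, Il7r and Il10ra. Just outside that size were Il6ra at -0.99 (LPS against BSA) and Il17ra at -0.99 (OA 20 h against 5 h). Array values are given for the 4 genes of that size by rule, and for Il6ra, Il17ra and other called genes that were chosen after their values were seen.

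**Figure D1:**
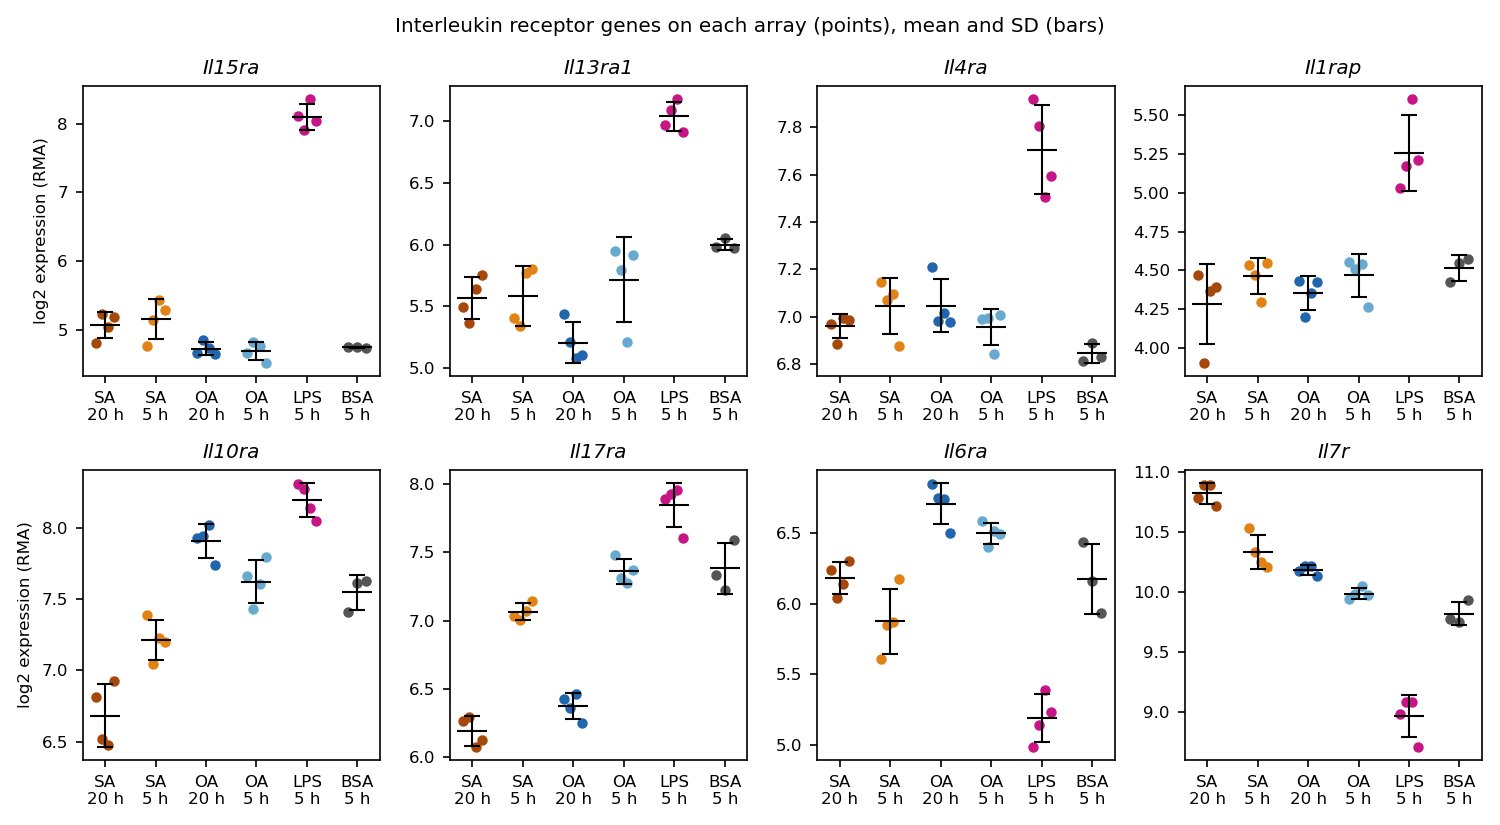
Log2 expression of 8 interleukin receptor genes (vertical axes, each panel with its own range) in the 6 groups (horizontal axes: SA 20 h, SA 5 h, OA 20 h, OA 5 h, LPS 5 h and BSA 5 h). Points are single arrays, 4 per group and 3 for BSA, and bars are means with SD. The LPS arrays lie above all others for Il15ra and Il13ra1 and below all others for Il6ra and Il7r, and the SA 20 h arrays are the lowest for Il10ra.

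LPS changed 10 of the receptor genes at 5 h, most of them upwards. Against BSA, 8 receptor genes rose and 2 fell, which is 28.6% of the 35, where 22.4% of all genes were called (9.22% risen and 13.2% fallen). The risen genes were Il15ra, Il13ra1, Il4ra, Il1rap, Il17rd, Il10ra, Il2ra and Il17ra, and the fallen ones Il6ra and Il7r. The median change of the 35 was 0.11, beside -0.02 for all genes.

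Among the common gamma chain receptors, 3 of 7 rose and 1 fell under LPS. Il15ra, which binds IL-15 and presents it to other cells, read 4.81, 5.23, 5.05 and 5.19 with SA at 20 h, 4.76, 5.15, 5.43 and 5.30 with SA at 5 h, 4.67, 4.86, 4.73 and 4.65 with OA at 20 h, and 4.66, 4.83, 4.77 and 4.52 with OA at 5 h. It read 8.11, 7.90, 8.35 and 8.04 on the LPS arrays and 4.75, 4.75 and 4.74 on the BSA arrays. All LPS arrays lay far above the rest. Every SA array lay above every BSA array, the nearest only at 4.76 against 4.75, and OA arrays lay on both sides of BSA. The difference of SA from BSA at 5 h was not called, and SA at 20 h had no vehicle of its time. The LPS change was 3.36 ± 0.13 (SE), a 10.2-fold rise with an adjusted p of 6.08e-16, and SA at 5 h was lower than LPS by 2.94 ± 0.12 (a change of -2.94, adjusted p = 1.72e-15). Il15, the ligand, rose with LPS by 3.57 ± 0.16 (adjusted p = 5.18e-15).

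Il7r, the alpha chain of the IL-7 receptor and of the receptor for the cytokine TSLP, moved the other way. It read 10.78, 10.90, 10.89 and 10.72 with SA at 20 h, 10.53, 10.33, 10.25 and 10.21 with SA at 5 h, 10.17, 10.22, 10.22 and 10.13 with OA at 20 h, and 9.94, 9.98, 10.05 and 9.97 with OA at 5 h. On the LPS arrays it read 8.98, 9.08, 9.08 and 8.71, and on the BSA arrays 9.77, 9.75 and 9.93. The order of the groups was SA 20 h, SA 5 h, OA 20 h, OA 5 h, BSA and LPS, and only SA 5 h and OA 20 h overlapped among neighbours. LPS lowered Il7r by 0.86 relative to BSA (a change of -0.86 ± 0.10, adjusted p = 1.51e-07). Of its ligands, Tslp rose with LPS by 0.70 ± 0.13 (adjusted p = 2.72e-04), and Il7 was not called (0.27, adjusted p = 0.0984). Both were near the reading of silent genes, with group means for LPS and BSA of 2.32 and 1.61 for Tslp and 3.26 and 3.00 for Il7. Crlf2, which pairs with Il7r in the TSLP receptor, was called in no comparison. T cells and early B cells also carry Il7r. The 6 measured T cell markers averaged 3.09 to 3.48 per array over all groups, with 2 to 4 of them at or below 3.52 in a group, and none was called for LPS or for SA at 5 h against BSA. The T cell marker Cd3g, which read 1.78 to 2.66 over all arrays, differed between SA and OA at 5 h (-0.39, adjusted p = 0.0438) and was higher with SA at 20 h than at 5 h (0.43, adjusted p = 0.0122). Of the 5 B cell markers 3 were at or below 3.52 in every group, and Cd79b fell by 0.58 with SA at 5 h and by 0.46 with LPS relative to BSA. Cd79b was also lower with SA than with OA, by a difference of -0.50 at 20 h and -0.76 at 5 h. Their part in the Il7r values was not tested.

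Il4ra, the chain that binds IL-4 and also completes the IL-13 receptor, read 7.92, 7.81, 7.51 and 7.60 with LPS and 6.81, 6.89 and 6.83 with BSA. Those groups did not overlap, and the change was 0.86 ± 0.10 (adjusted p = 1.61e-07). The 16 fatty acid arrays lay between 6.84 and 7.21, below every LPS array. Il2ra, the high-affinity chain for IL-2, read 2.73, 2.52, 2.30 and 2.13 with LPS and 1.94, 1.78 and 2.09 with BSA, all near the reading of silent genes. Its rise of 0.48 ± 0.17 (adjusted p = 0.0381) was not called after leaving out BSA replicate 1 or 2 or LPS replicate 1 or 2, with changes of 0.38 to 0.58 over the 7 fits.

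Il13ra1 forms the IL-13 receptor together with Il4ra. It read 5.49, 5.37, 5.64 and 5.76 with SA at 20 h, 5.40, 5.34, 5.77 and 5.81 with SA at 5 h, 5.44, 5.21, 5.08 and 5.10 with OA at 20 h, and 5.95, 5.79, 5.21 and 5.91 with OA at 5 h. With LPS it read 6.97, 7.09, 7.18 and 6.91, and with BSA 5.98, 6.05 and 5.97. The LPS arrays were the highest, the BSA arrays came next, and the 4 fatty acid groups overlapped each other below them. The LPS change was 1.04 ± 0.15, a 2.05-fold rise (adjusted p = 7.75e-06). Il13ra2, a decoy receptor for IL-13, had no group mean above 1.76 and was called nowhere. The ligands Il4 (-0.12, adjusted p = 0.588) and Il13 (0.10, adjusted p = 0.764) were not called with LPS. Of 14 genes known to respond to IL-4 or IL-13 in macrophages, 4 rose and 1 fell with LPS, led by Ch25h (4.17), Ccl22 (3.38) and Ccl17 (2.51), with Tfrc at -0.56.

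In the IL-1 family, Il1rap was the 1 called gene of 7. It is the accessory chain that the IL-1, IL-33 and IL-36 receptors share, and it read 5.03, 5.17, 5.60 and 5.21 with LPS and 4.42, 4.55 and 4.57 with BSA. The groups did not overlap, with a change of 0.74 ± 0.13 (adjusted p = 1.09e-04). Il1r2, the decoy receptor, Il1rl2, the IL-36 receptor, and both IL-18 receptor chains stayed at or below 3.52 in every group mean and were called nowhere.

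In the IL-17 family, 2 of 5 members rose with LPS. Il17ra, the chain shared by the receptors of this family, rose by 0.46 ± 0.10 (adjusted p = 0.00112). Il17rd, which is known to modify fibroblast growth factor and IL-17 signals, read 4.90, 4.96, 5.00 and 5.09 with LPS and 4.57, 4.43 and 4.02 with BSA, a rise of 0.65 ± 0.11 (adjusted p = 4.78e-05). Neither gene's groups overlapped. Il17rb, Il17rc and Il17re were called nowhere, and the ligand Il17a was not called with LPS (0.06, adjusted p = 0.835).

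Among the IL-10 and interferon type receptors, Il10ra rose with LPS by 0.64 ± 0.12 (adjusted p = 1.58e-04), and its partner chain Il10rb was not called. The ligand Il10 rose by 1.26 ± 0.14 (adjusted p = 7.53e-08). Of 9 genes known to respond to IL-10, 5 rose and none fell, among them Socs3 (2.58), Nfil3 (1.22) and Bcl3 (1.07).

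Among the IL-6 and IL-12 type receptors, Il6ra, the ligand-binding chain for IL-6, was the 1 of 6 called for LPS against BSA. It read 6.24, 6.04, 6.14 and 6.30 with SA at 20 h, 5.61, 5.85, 5.87 and 6.17 with SA at 5 h, 6.85, 6.75, 6.74 and 6.50 with OA at 20 h, and 6.58, 6.40, 6.52 and 6.49 with OA at 5 h. With LPS it read 4.98, 5.14, 5.39 and 5.23, and with BSA 6.43, 6.16 and 5.93. The LPS arrays were the lowest of all, and both OA groups had the highest means, OA at 5 h overlapping BSA. The LPS change was -0.99 ± 0.13, 1.99-fold lower (adjusted p = 1.33e-06). Il6st, the signalling chain that pairs with Il6ra, fell by 0.92 with LPS (a change of -0.92 ± 0.10, adjusted p = 1.10e-07), and the ligand Il6 rose by 8.07 ± 0.18 (adjusted p = 2.44e-20).

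Promoters are shown for the gene with the largest rise under LPS and for both genes that fell. Each is the 250 bases before the start of the gene, 5′ to 3′ on the gene's strand, from RefSeq for the build GRCm38.p6: Il15ra at chr2:11705043-11705292 (plus strand), Il6ra at chr3:89913197-89913446 (minus strand) and Il7r at chr15:9529877-9530126 (minus strand). Capitals mark matches to the core GAGGAA of the macrophage factor PU.1, on either strand, in Il15ra and Il6ra, and to the STAT motif GAS (TTCNNNGAA) in Il7r.
Il15ra: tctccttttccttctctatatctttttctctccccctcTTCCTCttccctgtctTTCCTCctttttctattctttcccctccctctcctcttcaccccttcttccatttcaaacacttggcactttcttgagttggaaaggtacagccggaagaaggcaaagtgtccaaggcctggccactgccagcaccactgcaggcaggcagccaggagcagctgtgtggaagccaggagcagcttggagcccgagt
Il6ra: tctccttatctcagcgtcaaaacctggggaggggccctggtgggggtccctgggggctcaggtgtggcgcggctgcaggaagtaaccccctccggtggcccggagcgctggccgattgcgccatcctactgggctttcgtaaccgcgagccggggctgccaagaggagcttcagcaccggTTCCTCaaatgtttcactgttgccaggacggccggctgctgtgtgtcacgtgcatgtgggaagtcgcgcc
Il7r: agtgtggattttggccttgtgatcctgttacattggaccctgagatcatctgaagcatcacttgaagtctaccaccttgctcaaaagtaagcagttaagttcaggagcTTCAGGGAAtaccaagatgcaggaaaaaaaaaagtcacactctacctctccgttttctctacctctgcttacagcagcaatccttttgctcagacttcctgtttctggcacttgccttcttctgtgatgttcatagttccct
The PU.1 core lay 212 to 207 and 196 to 191 bases before the start of Il15ra and 70 to 65 bases before that of Il6ra, and the GAS match lay 142 to 134 bases before the start of Il7r. Promoter entries matched 28 of the 35 receptor genes. The PU.1 core was present in 9 of these 28 and in 23.1% of 27025 gene promoters, and GAS in 4 of 28 and 7.14% of promoters. The interferon response motif ISRE was in none of the 28 and in 3.05% of promoters, and the NF-kB motif in 2 of 28 and 7.03%, all on both strands. The motifs may overlap each other, and a match describes these letters only.

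Genes of the wider pathway were also called with LPS, where 22.4% of all genes were called (9.22% risen and 13.2% fallen). Of 31 measured interleukin ligand genes 13 rose and none fell, with a median change of 0.21, and the list was led by Il6, Il1a (7.71), Il1b (4.56) and Il12b (4.05). Of 10 genes of Janus kinase and STAT signalling 5 rose and none fell, led by Stat2 (2.26) and Jak2 (1.95). Of 13 adaptors of the IL-1 and IL-17 receptors 6 rose and 2 fell, and of 16 feedback genes such as the SOCS family 8 rose and 3 fell, led by Cish (3.00). Of 12 partner subunits outside the symbol rule 1 rose and 2 fell. Neutrophil and macrophage markers also moved: 3 of 10 neutrophil markers rose, and of 9 macrophage markers 2 rose and 3 fell. The logarithm of the summed neutrophil markers spanned 12.4 to 12.6 on LPS arrays and 12.2 to 12.5 on BSA arrays, and that of the macrophage markers 13.7 to 13.8 in both groups. Of the other cell type markers, Cd79b, Itgax (-0.28) and Klrb1c (-0.47) fell and Mcpt8 (0.44) rose. Klrb1c read 2.43 to 3.30 and Mcpt8 2.66 to 3.63 over all arrays, near the reading of silent genes. The part of all these markers in the receptor changes was not tested.

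**Figure D2:**
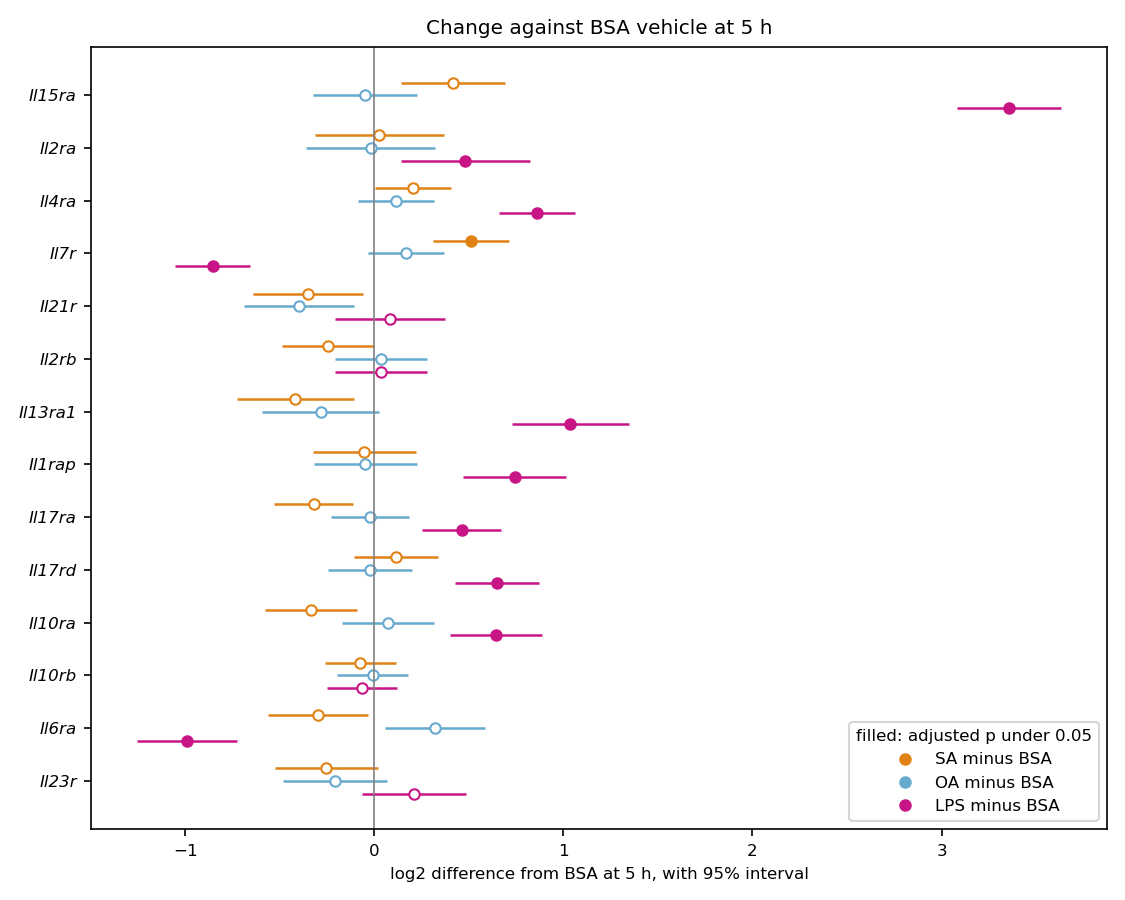
Log2 differences from BSA at 5 h (horizontal axis) for the 14 interleukin receptor genes called in any comparison (vertical axis), with SA, OA and LPS in separate colours. Points are limma estimates, lines are 95% intervals and filled points have an adjusted p under 0.05. LPS has 10 filled points, from -0.99 for Il6ra to 3.36 for Il15ra, SA has 1 (Il7r, 0.51) and OA has none.

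At 5 h SA changed 1 receptor gene relative to BSA, and OA changed none. For SA this was 2.86% of the members, where 3.33% of all genes were called (1.94% risen and 1.39% fallen). Il7r rose by 0.51 ± 0.10 with SA, a 1.43-fold difference (adjusted p = 0.00186), and all 4 SA arrays lay above all 3 BSA arrays. Some receptor genes were not called but had a p under 0.05 without the adjustment. Among them Il15ra stood at 0.41 (95% interval 0.14 to 0.69, adjusted p = 0.105), Il17ra at -0.32 (adjusted p = 0.0932), Il10ra at -0.33 (adjusted p = 0.151) and Il13ra1 at -0.42 (adjusted p = 0.163). Fitted with the variance trend Il17ra was also called, and with array quality weights Il15ra was. Of 9 macrophage markers 2 fell with SA relative to BSA (Fcgr1, -0.86, and Mertk, -0.50), and of 10 neutrophil markers 1 fell (Ngp, -0.58), besides Cd79b. The logarithm of the summed macrophage markers was 13.6 with SA and 13.7 to 13.8 with BSA, and that of the neutrophil markers 12.0 to 12.3 with SA and 12.2 to 12.5 with BSA. Whether they bear on the Il7r change was not tested.

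For OA against BSA, 0.0702% of all genes were called by limma (0.0201% risen and 0.0502% fallen). The intervals of the 35 reached at most 0.690 from 0, for Il21r, whose difference was -0.40 (adjusted p = 0.723). The OA difference of Il7r was 0.17 (95% interval -0.03 to 0.37). Both acids were compared with the same 3 BSA arrays. Of the wider pathway, SA raised Pim1 (1.14), Peli1 (0.74) and Irs2 (0.65) and lowered the ligand Il1b (-0.68). Of the 9 genes that respond to IL-10, SA raised 3 (Nfil3, 0.70, Etv3, 0.57, and Hmox1, 0.50). OA changed no gene of the ligand, adaptor, Janus kinase and STAT signalling, or feedback lists.

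SA and LPS gave different levels of 12 receptor genes at 5 h, and the test of that difference called 10 lower with SA and 2 higher. This was 34.3% of the members, where 22.1% of all genes were called (13.0% higher and 9.11% lower with SA). The median difference of the 35 was -0.07, beside 0.04 for all genes. Besides Il15ra, the genes lower with SA were Il13ra1 (-1.45), Il10ra (-0.98), Il1rap (-0.79), Il17ra (-0.78), Il4ra (-0.66), Il17rd (-0.54), Il23r (-0.46), Il2ra (-0.45) and Il21r (-0.44). Il7r was higher with SA by 1.37 ± 0.09, a 2.58-fold difference (adjusted p = 7.97e-12), and Il6ra by 0.69 ± 0.12 (adjusted p = 7.14e-05).

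Il21r, the IL-21 receptor chain, read 5.69, 5.63, 5.81 and 5.89 with SA and 6.11, 6.15, 6.44 and 6.06 with LPS. It read 5.64 to 5.79 with OA at 5 h, overlapping SA, and 6.01 to 6.17 with BSA, overlapping LPS. The SA arrays lay below the LPS arrays (adjusted p = 0.0161), and the call ended without LPS replicate 3 or SA replicate 2 (-0.35 to -0.48 over the 8 fits). Il23r, the IL-23 receptor chain, read 2.02, 1.88, 2.38 and 1.92 with SA and 2.40, 2.44, 2.81 and 2.42 with LPS (adjusted p = 0.00649), near the reading of silent genes. The Il2ra arrays of SA and LPS overlapped (adjusted p = 0.0343), and its call ended without LPS replicate 1 or 2 or SA replicate 2 or 4 (-0.59 to -0.35 over the 8 fits) and in a fit on those groups alone (adjusted p = 0.0839). Of 10 neutrophil markers 6 were lower with SA, and of 9 macrophage markers 3 were. The logarithm of their sums spanned 12.0 to 12.3 with SA and 12.4 to 12.6 with LPS for neutrophils, and 13.6 with SA and 13.7 to 13.8 with LPS for macrophages. Mcpt8, a mast cell and basophil marker near the reading of silent genes, was also lower with SA (-0.48). Their part in the receptor differences was not tested.

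The saturated and the monounsaturated acid differed at 5 h in 4 receptor genes, Il7r and Il15ra being higher and Il6ra and Il10ra lower with SA than with OA. That is 11.4% of the members, where 5.67% of all genes were called (3.3% higher and 2.37% lower). The difference of Il6ra was -0.62 ± 0.12, 1.54-fold lower with SA (adjusted p = 0.00118), and no SA array reached the OA arrays. Il15ra differed by 0.46 ± 0.12 (adjusted p = 0.0237) with overlapping arrays, Il7r by 0.34 ± 0.09 (adjusted p = 0.0201) and Il10ra by -0.41 ± 0.11 (adjusted p = 0.0244), the last 2 without overlap. Fitted on SA and OA at 5 h alone, only Il6ra was called.

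Those calls also depended on single arrays. The Il10ra call ended without OA replicate 1, 3 or 4 or SA replicate 2, 3 or 4 (-0.47 to -0.35 over the 8 fits). The Il15ra call ended without OA replicate 1 or 4 or SA replicate 3 or 4 (0.37 to 0.60), and the Il7r call without OA replicate 1 or SA replicate 1 (0.28 to 0.38). The count was 1 without OA replicate 1 and 2 without OA replicate 4, SA replicate 3 or SA replicate 4. The 31 receptor genes not called had intervals reaching at most 0.566 from 0, for Il22ra1. Of the ligands Il1a (1.39) and Il15 (0.59) were higher with SA. The Il1a mean with OA at 5 h was 2.63, below 3.52, and its SA arrays read 3.16 to 4.77. Of 9 macrophage markers 3 were lower with SA (Fcgr1, -1.07, Mertk, -0.82, and Itgam, -0.29). Of the other cell type markers, Cd79b (-0.76), Cd3g (-0.39) and Itgax (-0.25), a dendritic cell marker, were lower with SA. Whether they bear on the receptor differences was not tested.

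At 20 h 5 receptor genes differed between the acids, Il10ra the most. This was 14.3% of the members, where 16.7% of all genes were called, with 1 member higher with SA (7.72% of all genes) and 4 lower (8.95%). Il10ra, the chain that binds IL-10, read 6.81, 6.52, 6.48 and 6.92 with SA at 20 h and 7.93, 7.94, 8.02 and 7.74 with OA at 20 h. At 5 h it read 7.39, 7.05, 7.23 and 7.20 with SA and 7.66, 7.43, 7.61 and 7.80 with OA, and with LPS 8.31, 8.28, 8.14 and 8.05, against 7.41, 7.61 and 7.63 with BSA. The SA 20 h arrays were the lowest of all 23 and the LPS arrays the highest, while the OA groups overlapped each other and OA 5 h overlapped BSA. The difference at 20 h was -1.23 ± 0.11, 2.34-fold lower with SA (adjusted p = 4.59e-09). Il10rb, its partner chain, read 9.06, 8.84, 9.14 and 9.05 with SA and 9.32, 9.47, 9.25 and 9.26 with OA, without overlap, a difference of -0.30 ± 0.08 (adjusted p = 0.0134).

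Il10ra was the 1 receptor gene called in the test of whether the difference between the acids changed with time. The difference at 20 h minus that at 5 h was -0.82 (95% interval -1.14 to -0.50, adjusted p = 0.00107), and 2.86% of the members were called in this test, where 4.98% of all genes were (1.58% with a positive and 3.4% with a negative change). Of 9 macrophage markers 5 were called in the same test, all with a negative change, and Itgax (-0.42) and Cd3g (0.57) were also called in it. The ligand Il10 was lower with SA at 20 h by 0.55 (a difference of -0.55 ± 0.13, adjusted p = 0.00226). Its means at 20 h were 3.22 with SA, below the level of 3.52 for silent genes, and 3.77 with OA. Of 9 genes known to respond to IL-10, 2 were higher with SA (Nfil3, 1.50, and Hmox1, 0.22) and 2 lower (Zfp36, -0.45, and Il1rn, -0.38).

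At 20 h Il7r exceeded its OA level in SA-treated cells by 0.64 ± 0.09, a 1.56-fold difference without overlap (adjusted p = 6.46e-06). Il6ra was lower by 0.53 (a difference of -0.53 ± 0.12, adjusted p = 0.00198). Il2rb, the chain shared by the IL-2 and IL-15 receptors, read 2.56, 3.03, 2.52 and 2.85 with SA and 3.16, 3.14, 3.13 and 2.94 with OA, groups that overlapped (-0.35 ± 0.11, adjusted p = 0.0241). The Il2rb call ended without OA replicate 1, 2 or 3 or SA replicate 1 or 3 (-0.45 to -0.28 over the 8 fits), and the Il10rb call without OA replicate 2 or SA replicate 2 (-0.34 to -0.24). Neither was called in a fit on the 20 h groups alone (adjusted p = 0.0731 for Il2rb and 0.0570 for Il10rb). Without OA replicate 2 the count was 3. Il15ra stood at 0.34 (95% interval 0.09 to 0.60, adjusted p = 0.0601), and the intervals of the 30 receptor genes not called reached at most 0.645 from 0, for Il13ra1.

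Macrophage markers were lower with SA at 20 h too. Of 9 measured, 7 fell relative to OA, among them Fcgr1 (-2.13), Itgam (-1.05) and Mertk (-0.90), and their mean per array was 9.12 to 9.22 with SA and 9.86 to 9.88 with OA. The logarithm of their sum was 13.3 with SA and 13.6 to 13.7 with OA, and none was at or below 3.52. Of the other cell type markers, Itgax, Cd79b and Csf3r were also lower with SA. Their part in the Il10ra difference was not tested.

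In the wider pathway at 20 h, 2 ligand genes were higher with SA than with OA (Il1a, 1.60, and Il6, 0.64). Another 5 were lower, among them Il1b (-1.33), Il18 (-0.79) and Il15 (-0.56). The Il6 means were 2.24 with SA and 1.60 with OA, near the reading of silent genes. The Il1a mean with OA (2.38) and the Il1b mean with SA (3.25) also lay below 3.52. Of 12 partner subunits 3 were higher and 3 lower, with Ifngr1, the interferon gamma receptor chain, at -1.13 and Ebi3, a subunit of the ligands IL-27 and IL-35, at -0.96. The feedback genes had 4 higher and 1 lower of 16, and of 10 genes of Janus kinase and STAT signalling none was called. Of the 14 genes that respond to IL-4 or IL-13, Mrc1 (-2.13) and Tfrc (-0.79) were lower.

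**Figure D3:**
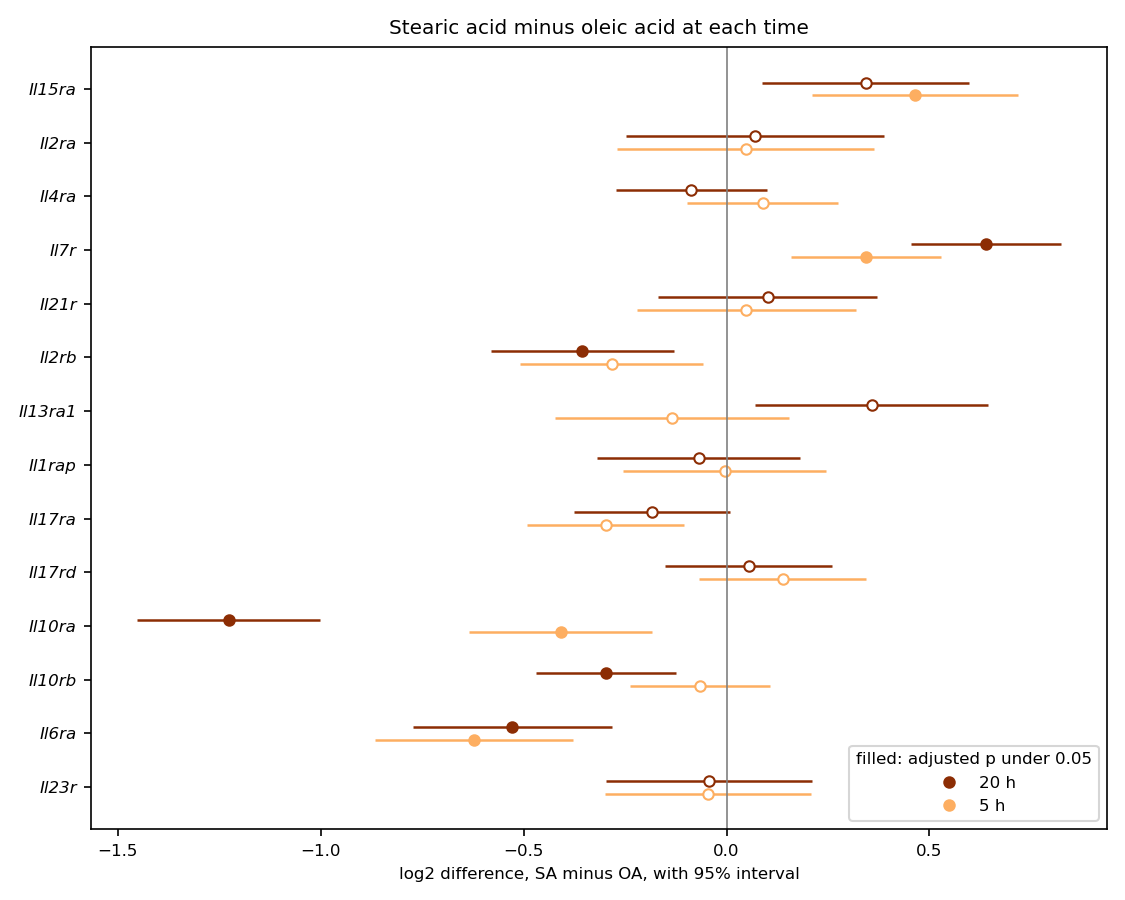
Log2 differences of SA minus OA (horizontal axis) at 20 h and 5 h for the 14 interleukin receptor genes called in any comparison (vertical axis). Points are limma estimates, lines are 95% intervals and filled points have an adjusted p under 0.05. Il10ra lies at -1.23 at 20 h and -0.41 at 5 h, Il6ra at -0.53 and -0.62, and Il7r at 0.64 and 0.34 at the same times.

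Between 5 h and 20 h, 3 receptor genes changed with SA and 2 with OA, and Il17ra fell with both. With SA this was 8.57% of the members, where 12.8% of all genes were called (6.23% risen and 6.57% fallen). With OA it was 5.71%, where 4.38% of all genes were called (2.58% risen and 1.8% fallen). Il17ra read 6.26, 6.30, 6.07 and 6.13 with SA at 20 h and 7.04, 7.00, 7.07 and 7.15 at 5 h. With OA it read 6.43, 6.36, 6.46 and 6.25 at 20 h and 7.48, 7.31, 7.28 and 7.37 at 5 h. The LPS arrays read 7.89, 7.93, 7.96 and 7.61 and the BSA arrays 7.34, 7.23 and 7.59. All 8 arrays of 20 h lay below all others, and both acids overlapped there. The changes at 20 h relative to 5 h were -0.87 ± 0.09 with SA, 1.83-fold lower (adjusted p = 1.67e-07), and -0.99 ± 0.09 with OA, 1.98-fold lower (adjusted p = 1.17e-07). The difference between these changes was 0.11 (95% interval -0.16 to 0.39, adjusted p = 0.795). With no vehicle at 20 h, time in culture and time with the acid cannot be told apart.

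Il10ra fell between the times with SA (-0.53 ± 0.11, adjusted p = 0.00108) and stood at 0.29 with OA (adjusted p = 0.162). Il7r rose with SA by 0.49 ± 0.09 (adjusted p = 2.86e-04) and stood at 0.20 with OA (adjusted p = 0.269), and the difference between these changes was 0.30 (95% interval 0.03 to 0.56, adjusted p = 0.25). Il13ra1 fell with OA by 0.51 (a change of -0.51 ± 0.14, adjusted p = 0.0343), with 1 array of 5 h inside the range of 20 h. That call ended without OA 5 h replicate 1, 2 or 4 or OA 20 h replicate 2, 3 or 4 (-0.68 to -0.43 over the 8 fits), and in a fit on the 2 OA groups alone. The OA count was 1 without OA 5 h replicate 1, 2 or 4 or OA 20 h replicate 2 or 3. With SA the count was 5 without SA 20 h replicate 2, adding Il21r and Il3ra.

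Il6st, the partner of Il6ra, rose between the times by 0.77 ± 0.09 with SA (adjusted p = 1.39e-06) and by 0.76 ± 0.09 with OA (adjusted p = 7.89e-06). Il1b fell by 2.22 with SA (-2.22) and by 1.22 with OA (-1.22). Of 10 neutrophil markers 5 rose with SA and 2 with OA between the times. Of 9 macrophage markers 1 rose and 6 fell with SA, and 3 rose and 1 fell with OA. Of the other cell type markers, Cd3g rose (0.43) and Itgax fell (-0.29) with SA, and none was called with OA. Their part in the receptor changes was not tested.

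**Figure D4:**
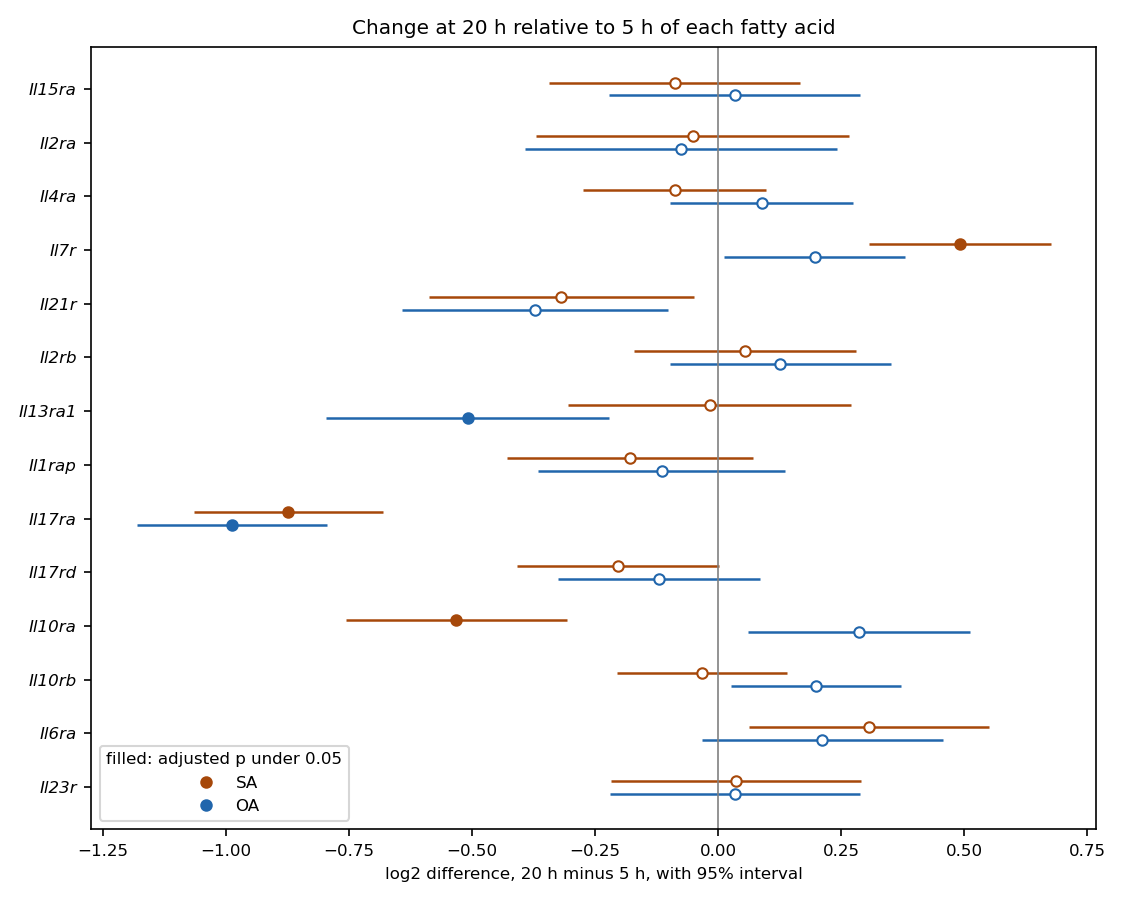
Log2 differences of 20 h minus 5 h (horizontal axis) with SA and with OA for the 14 interleukin receptor genes called in any comparison (vertical axis). Points are limma estimates, lines are 95% intervals and filled points have an adjusted p under 0.05. Il17ra lies at -0.87 with SA and -0.99 with OA, and Il10ra lies at -0.53 with SA and 0.29 with OA.

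The 21 receptor genes that were never called had group means spread over 0.08 to 0.56. In 11 of them every group mean was at or below 3.52: Il13ra2, Il18r1, Il18rap, Il1r2, Il1rapl1, Il1rapl2, Il1rl2, Il20ra, Il22ra2, Il31ra and Il5ra. The other 10 reached above it in at least 1 group: Il12rb1, Il12rb2, Il17rb, Il17rc, Il17re, Il20rb, Il22ra1, Il27ra, Il3ra and Il9r. Il3ra, the ligand-binding chain for IL-3, had a highest group mean of 7.76 with OA at 20 h and a lowest of 7.44 with OA at 5 h. Il12rb2, an IL-12 receptor chain, had group means between 5.08 with SA at 5 h and 5.64 with OA at 20 h. Several receptor genes lie next to each other in the genome with no protein-coding gene between them. In the pairs Il2ra and Il15ra, Il4ra and Il21r, and Il12rb2 and Il23r, the LPS changes against BSA were 0.48 and 3.36, 0.86 and 0.08, and -0.03 and 0.21.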

How the data were processed

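RNA of 23 macrophage samples was measured on arrays after amplification from about 10 ng, per the labels. The deposited log2 values come from RMA according to the submitters' processing notes, which also name limma and give no versions. RMA subtracts background, gives all arrays 1 distribution and combines the probes of a set, so shifts of a whole array are removed. Arrays give no read depth, and the number of arrays limits the precision. The genome build used for the arrays is not given in the sources used here.

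Of 35556 probe sets, 21789 had 1 symbol, 1621 several and 12146 none in the probe table, and those with 1 symbol gave 19938 genes. Of the receptor genes, 3 had several probe sets. limma 3.58.1 in R 4.3.3 fitted a mean per group to all 23 arrays, with 9 comparisons, two-sided p-values and Benjamini-Hochberg adjustment over all genes. The fit was tested on simulated data. The alternatives tried were a robust variance trend, median or quantile scaling, array quality weights, dropping the 25% of genes with the lowest means, averaging probe sets, fitting the compared groups alone, the replicate block and leaving out each array. Plots and tables used Python 3.11.15 and matplotlib 3.10.9.

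Every receptor gene called in a comparison was named, and array values were to be given for those with a called change of at least 1. The members and all gene lists were chosen with earlier results of these data known. Promoters are RefSeq windows of 250 bases. The main fit did not pair samples by replicate number, and the correlations given below cannot exclude a pairing.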

Additional observations from a re-analysis of the deposited data

Results flagged for a closer look

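In 7 of 70 groups of 4 arrays, over the 14 called receptor genes, 1 array lay far from the other 3 by Dixon's criterion, which chance alone meets in about 1 of 20 groups. Il1rap read 4.26 on OA 5 h replicate 4, where the others read 4.51 to 4.56. Il23r was far off on 3 arrays: OA 5 h replicate 2 read 2.46, where the others read 1.94 to 2.02, OA 20 h replicate 3 read 2.10, where the others read 2.14, and LPS replicate 3 read 2.81, where the others read 2.40 to 2.44. Il2rb read 2.94 on OA 20 h replicate 4, where the others read 3.13 to 3.16. Il4ra read 6.84 on OA 5 h replicate 3, where the others read 6.99 to 7.01, and 7.21 on OA 20 h replicate 1, where the others read 6.98 to 7.01.

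The difference of Il10ra between SA and OA changed between the times. The value at 20 h minus that at 5 h was -0.82 (95% interval -1.14 to -0.50, adjusted p = 0.00107 by limma), and it stayed between -0.90 and -0.75 when any of the 16 arrays of these groups was left out.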

How the results depend on the processing

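Of 72 recounts of called receptor genes under other settings, 67 stayed within 1.5 times the count reported, and no single change reversed its sign under any setting or left-out array. SA against BSA gave 2 calls in place of 1 with the variance trend and 2 with array quality weights. SA against OA at 5 h gave 1 in place of 4 when fitted alone, and OA at 20 h against 5 h gave 4 in place of 2 with array weights and 1 when fitted alone. Leaving out 1 array at a time gave 1 to 2 calls for SA against BSA, 0 for OA against BSA, 9 to 12 for LPS against BSA, 11 to 13 for SA against LPS, 1 to 4 for SA against OA at 5 h and 3 to 5 at 20 h. It gave 3 to 5 for SA and 1 to 3 for OA between the times, and 1 to 2 for the change of the difference between the acids, where Il13ra1 joined without OA 5 h replicate 3. SA against BSA gave 2 without SA 5 h replicate 1.

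Of 301 single changes under other settings 8 lost their call, 7 in fits of the compared groups alone. The other was Il2ra with LPS, at 0.42 (adjusted p = 0.0684) after quantile scaling. Of 301 with an array left out 35 lost their call. The pairing of samples by replicate number was checked: deviations of same-numbered samples correlated at -0.12 to 0.20 over 55 pairs, and those of different numbers at -0.22 to 0.25 over 165. With the replicate block the counts were 1, 0, 10, 12, 4, 6, 3, 2 and 1 in the order of the comparisons above (SA, OA and LPS against BSA, SA against LPS, SA against OA at 5 h and 20 h, SA and OA between the times, and the change of the difference), where Il15ra joined at 20 h. No median shift of all genes reached 0.1 under a scaling. The 14 receptor genes reading near silent genes may have changes that these arrays do not resolve.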
